A study of Mus musculus with 8 samples.

Results

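The comparison described here is between the arsenite granule fraction of Mettl3 knockout mouse embryonic fibroblasts and the same fraction of control cells. It takes 4 of the 8 libraries of the series, knockout granule replicates 1 and 2 and control granule replicates 1 and 2, which were fitted on their own. Its members are all genes that passed an expression filter over these 4 libraries, 18066 of the 39017 gene identifiers in the deposited table. The other 4 libraries hold total RNA of unstressed cells of both genotypes and enter only where the knockout effect in the granule fraction is set against that in total RNA.

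The cells came from E13.5 embryos, and their genotype was either control or Mettl3 knockout. Per the labels' protocols, the knockout was made with 500 nM 4-hydroxytamoxifen for 48 h, which switches on a Cre recombinase, and the cells were collected the day after the loss of the protein and of its RNA mark had been checked at 7 days. The labels do not say whether the control cells received the drug, what drives the Cre, or whether both genotypes came from the same embryos. Both granule groups received 500 µM sodium arsenite for 30 min, after which granules were enriched by centrifugation and polyadenylated RNA was isolated from them on oligo(dT) beads. The design text calls the 2 libraries of each group biological replicates and does not say whether they came from separate embryos, so the p-values measure only the spread between these libraries.

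Mettl3 is the methyltransferase that places N6-methyladenosine (m6A) on mRNA, a mark that reader proteins use to direct the splicing, export, decay and translation of the transcript. Arsenite is an oxidative stress that stops the start of translation, and mRNAs released from ribosomes gather with RNA-binding proteins in cytoplasmic stress granules. Fibroblasts secrete collagens and the enzymes that remodel them, and they mount a type I interferon response when sensor proteins detect foreign or unmasked self RNA or DNA, in which a factor that contains Stat2 and Irf9 binds the interferon-stimulated response element in the promoters of antiviral genes.

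Promoter sequences are shown for 6 genes that rose and stand for steps of that response, chosen among those whose window holds the element, to show what it looks like. Of the antiviral genes with a window, 20 of 33 hold it, so the genes shown do not stand for all. Each line gives 60 bases of the 300-base window from 250 bases before to 50 bases after the annotated start (RefSeq, GRCm38.p6), 5′ to 3′ on the strand of the gene. Capitals mark matches to the core of the element, GAAA, any 2 bases and GAAA again, or to its reverse complement, TTTC, any 2 bases and TTTC, and overlapping matches run together. The windows lie at chr4:156200850-156200909 (minus strand, Isg15), chr19:34640779-34640838 (plus, Ifit1), chr5:120907526-120907585 (minus, Oas1a), chr8:71537562-71537621 (minus, Bst2), chr10:128270251-128270310 (plus, Stat2) and chr2:122147523-122147582 (plus, B2m).
Isg15: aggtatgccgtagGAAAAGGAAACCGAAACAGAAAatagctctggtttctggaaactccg
Ifit1: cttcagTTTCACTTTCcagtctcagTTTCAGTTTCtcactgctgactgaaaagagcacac
Oas1a: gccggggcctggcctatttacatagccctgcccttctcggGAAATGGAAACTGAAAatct
Bst2: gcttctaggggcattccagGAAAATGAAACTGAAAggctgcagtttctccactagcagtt
Stat2: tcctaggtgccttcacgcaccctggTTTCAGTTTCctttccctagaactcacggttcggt
B2m: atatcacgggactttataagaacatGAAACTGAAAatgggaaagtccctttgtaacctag

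Contractile genes, which fell, are known targets of serum response factor (Srf), which binds another element, the CArG box. It is shown in capitals for Vcl at chr14:20929148-20929205 (plus strand), Cnn2 at chr10:79988519-79988578 (plus) and Srf itself at chr17:46556190-46556249 (minus), from the same table.
Vcl: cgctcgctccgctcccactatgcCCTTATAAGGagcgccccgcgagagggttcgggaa
Cnn2: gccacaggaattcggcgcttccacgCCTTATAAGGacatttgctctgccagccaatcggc
Srf: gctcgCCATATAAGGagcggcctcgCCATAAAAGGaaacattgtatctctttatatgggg

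The libraries were deep, at 107314528 and 118426371 counts in the control granule group and 105980382 and 97492170 in the knockout granule group, so that 3 counts correspond to between 0.0253 and 0.0308 CPM, that is, counts scaled to a common library size; levels below are CPM after TMM scaling. Replicates lay close together: for the 10133 genes averaging 5 CPM or more, the typical (median) absolute log2 ratio of 1 replicate to the other was 0.0998 for control and 0.125 for knockout, and 0.498 between group means. Mitochondrially encoded RNA took 0.59% and 0.678% of the control libraries and 6.16% (95% Wilson binomial interval 6.152 to 6.161) and 8.81% (8.803 to 8.814) of the knockout libraries, intervals that cover counting error only. Mettl3 itself read 15.5 and 15.2 in control and 5.48 and 6.4 in knockout, which is -1.37 on the log2 scale (SE 0.13, adjusted p = 1.14e-06, edgeR). Both knockout libraries were below both control libraries, and 18.38% of the Mettl3 exon length is shared with Tox4, which the counting may not separate. Of the fibroblast markers, 7 of 10 rose and Vim, the intermediate filament protein, fell, with all 10 above the level of 3 counts. Markers of leukocytes and macrophages summed to 91 and 79 in control and 103 and 107 in knockout, with 5 of 11 higher. Those of endothelium summed to 9.5 and 7 against 14.9 and 17.5, with 2 of 8 higher, and those of epithelium to 1020 and 1210 against 637 and 845, with 1 of 9 higher and Krt19 lower. The part of these cell types in the results was not tested.

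With an adjusted p under 0.05 by edgeR's quasi-likelihood test, 10359 genes were called, 57.3% of those tested. Of these, 5263 were higher in the knockout granule fraction (29.1%) and 5096 lower (28.2%). Genes called and changed at least 2-fold numbered 4457 (24.7%), of which 2871 were higher (15.9%) and 1586 lower (8.78%). Groups that did not overlap were seen for 41.4% of genes in the higher direction and 37.5% in the lower. The median log2 fold change over all genes was 0.07. Since most genes passed, a call alone says little about a list. The counts or shares at least 2-fold changed, given for the lists below, are to be read against 15.9% and 8.78%, beside the list medians. In a simulation on the same 18066 genes, 200 genes averaging 5 CPM or more were changed. Of these, 73.1% of 1.5-fold, 100% of 2-fold and 98.5% of 4-fold changes were recovered. Recovery at lower levels, or with as many genes changed as here, was not simulated. A level in the granule fraction depends both on how much of an mRNA the cells hold and on how much of it goes into the granules, and on how many cells of each kind are present, and these cannot be told apart from the 4 libraries.

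**Figure D1:**
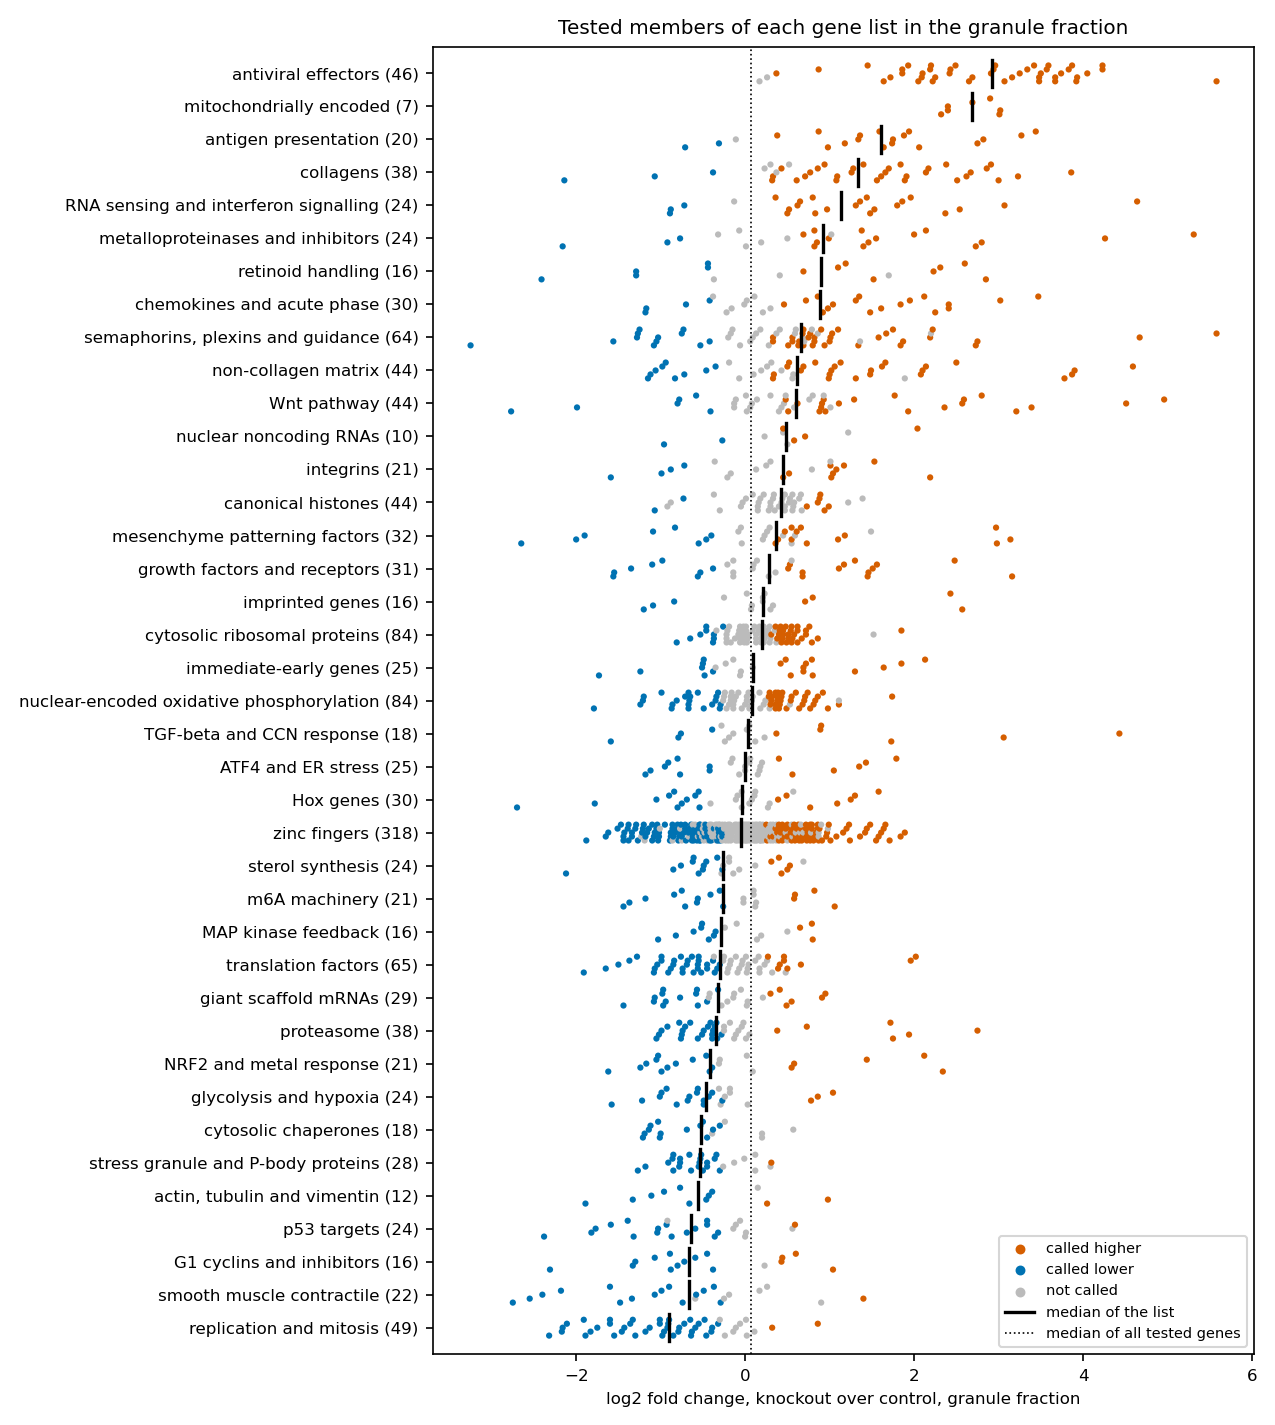
Each point is 1 tested gene of a list, placed by its log2 fold change of knockout over control in the granule fraction, and the number of tested members stands behind each list name. Black bars mark list medians, from 2.92 for antiviral effectors to -0.9 for replication and mitosis, and the dotted line marks the median of all tested genes, 0.07.

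Antiviral effectors, the proteins that block viral entry, translation and replication, had the highest median of the lists described here. Of 46 tested, 44 rose and 0 fell, 42 of them at least 2-fold, and the median log2 fold change was 2.92. Ifi27l2a, a small interferon-induced membrane protein, read 5.1 and 5.61 in control and 270 and 244 in knockout, a 47.9-fold rise (log2 5.58, SE 0.13). Bst2, tetherin, which holds budding virus at the cell surface, read 52.8 and 49.3 against 959 and 958 (18.8-fold). Both groups were tight and far apart for each of these genes, which were named for their large changes. Oas1a, a synthetase of the oligoadenylate signal that activates RNase L, went from 4.91 and 3.85 to 76.3 and 87.7. Rtp4, an interferon-induced chaperone, went from 14.4 and 13.6 to 247 and 218. Isg15, a ubiquitin-like modifier, read 32.9 and 30.9 against 447 and 461, a change of 3.83 in log2 terms (SE 0.12, adjusted p = 4.65e-11, edgeR). Other oligoadenylate synthetases rose as well, Oas2 by 3.93 and Oas3 by 2.22 on the log2 scale, as did the dynamin-like GTPases Mx2 (3.92) and Mx1 (2.91) and the guanylate-binding proteins Gbp3 (3.67) and Gbp7 (3.25). Ifit family proteins, which bind viral 5′ ends, were uneven: Ifit3 rose by 3.57 and Ifit1 by 2.43, whereas Ifit2 read 129 and 113 against 162 and 150, a change of 0.37 (SE 0.11, adjusted p = 0.0105, edgeR). Slfn5, at 1.32 and 0.947 against 1.13 and 1.59, overlapped between groups, and neither it nor Ifi27 (0.17) was called. Reads of the Ifit, Oas, Gbp and Ifi200 families can be split between near-identical copies, so the change of a single copy is less certain than that of the family.

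Sensors of nucleic acid and the factors of interferon signalling showed a graded pattern. Of 24 tested, 20 rose, 12 of them at least 2-fold, 3 fell, and the median was 1.14. Irf7, the transcription factor that amplifies interferon production, had the largest change, from 8.76 and 8.09 to 209 and 210, a 24.9-fold rise (log2 4.64, SE 0.12, adjusted p = 1.04e-11, edgeR). Of the interferon-activated factor, Stat2 went from 20.9 and 19.9 to 118 and 119 and Irf9 from 13.9 and 12.6 to 70.5 and 66.4. Both were separated between groups with no overlap, as were 41.4% of all genes in the higher direction. The RNA sensors Dhx58 (3.07), Ddx58, which encodes RIG-I (1.86), Tlr3 (1.8) and Ifih1, which encodes MDA5 (1.36), rose on the log2 scale, and the DNA sensor Cgas rose less (0.5). The 3 members that fell were Mavs, Tbk1 and Socs3. Mavs, the mitochondrial adaptor of RIG-I and MDA5, read 30.9 and 31.7 in control and 20.6 and 17.4 in knockout, a fall of 1.65-fold. Tbk1, the kinase that phosphorylates interferon regulatory factors, fell from 80.9 and 70.9 to 43.7 and 38.2. Of the feedback inhibitors, Socs3 fell from 82.8 and 82 to 49.3 and 40.4, and Socs1, at 5.19 and 5.97 against 5.6 and 4.59, was not called. Among the ligands, Ifnb1 had 2 and 2 raw counts in control and 17 and 8 in knockout, Ifnz had 7 and 23 against 84 and 68, and no interferon alpha gene exceeded 7 counts in any library.

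Antigen presentation genes, which load and display peptides on class I molecules, rose in 17 of 20 cases, 14 at least 2-fold, with a median of 1.61. H2-K1 read 75.4 and 72.4 in control and 925 and 681 in knockout, and H2-D1 read 101 and 97.8 against 1090 and 827. Each rose about as much as the other on the log2 scale, by 3.44 (SE 0.16) and 3.27 (SE 0.15), though reads of these similar class I genes can be exchanged. The light chain B2m went from 366 and 366 to 1320 and 1130 and the peptide transporter Tap1 from 20.1 and 18.2 to 74.7 and 66.4. The 3 catalytic subunits of the immunoproteasome, Psmb8 (2.75), Psmb9 (1.94) and Psmb10 (1.75), rose, while the constitutive proteasome did not follow: of 38 proteasome genes 22 fell and 6 rose, with a median of -0.35 (-0.18 among genes averaging 5 CPM or more), and the 6 include those 3 and the thymic subunit Psmb11 (1.72), beside Psmd7 (0.73) and Psma4 (0.38). Of the 38 proteasome genes, 10.5% were at least 2-fold higher and 5.26% lower. The regulatory subunit Psmd2 went from 993 and 945 to 465 and 470. The general lectin chaperones moved down, Canx from 564 and 516 to 340 and 318 (log2 -0.71) and Calr from 1210 and 1210 to 976 and 972 (log2 -0.31, adjusted p = 0.0482, edgeR).

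Chemokines and acute phase proteins, which recruit leukocytes or act in innate defence, were mixed. Of 30 tested, 18 rose, 13 of them at least 2-fold, and 4 fell, with a median of 0.89 that dropped to 0.38 among genes averaging 5 CPM or more. Ccl5, a T cell and monocyte attractant, went from 15.2 and 17.7 to 173 and 192 (11.1-fold). Ccl2, the main monocyte attractant, went from 76.4 and 77.8 to 436 and 298, and Ccl7, its neighbour in the genome, from 20.1 and 19.4 to 118 and 90.9. C1ra, a protease of the classical complement pathway, rose from 7.39 and 6.43 to 65.6 and 46.6. Knockout replicate 1 stood above replicate 2 for Ccl2, Ccl7 and C1ra, and both stood well above control. In the other direction, Cxcl12, the constitutive stromal chemokine, fell from 335 and 336 to 155 and 140, a change of -1.18 in log2 terms (SE 0.11). Cxcl10, itself an interferon target, rose by 0.86 only, and the neutrophil attractants Cxcl1 (0.11) and Cxcl2 (-0.01) were not called.

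The response element is set beside these calls as a description of sequence, not of binding. Of the 46 antiviral effectors 33 had a promoter window, and 20 of these held that core on either strand (60.6%). The share was 27.8% for antigen presentation (5 of 18), 25% for RNA sensing and interferon signalling (5 of 20) and 10% for chemokines and acute phase (2 of 20). Over tested protein-coding genes with a window it was 3.85% (446 of 11591), and over all 27025 genes with a window 3.99%. Of protein-coding genes with a window, 7.77% of those at least 2-fold higher held the element and 2.88% of those at least 2-fold lower. With the 3 interferon and antigen lists set aside, the share among the higher genes was 6.26% (91 of 1454).

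**Figure D2:**
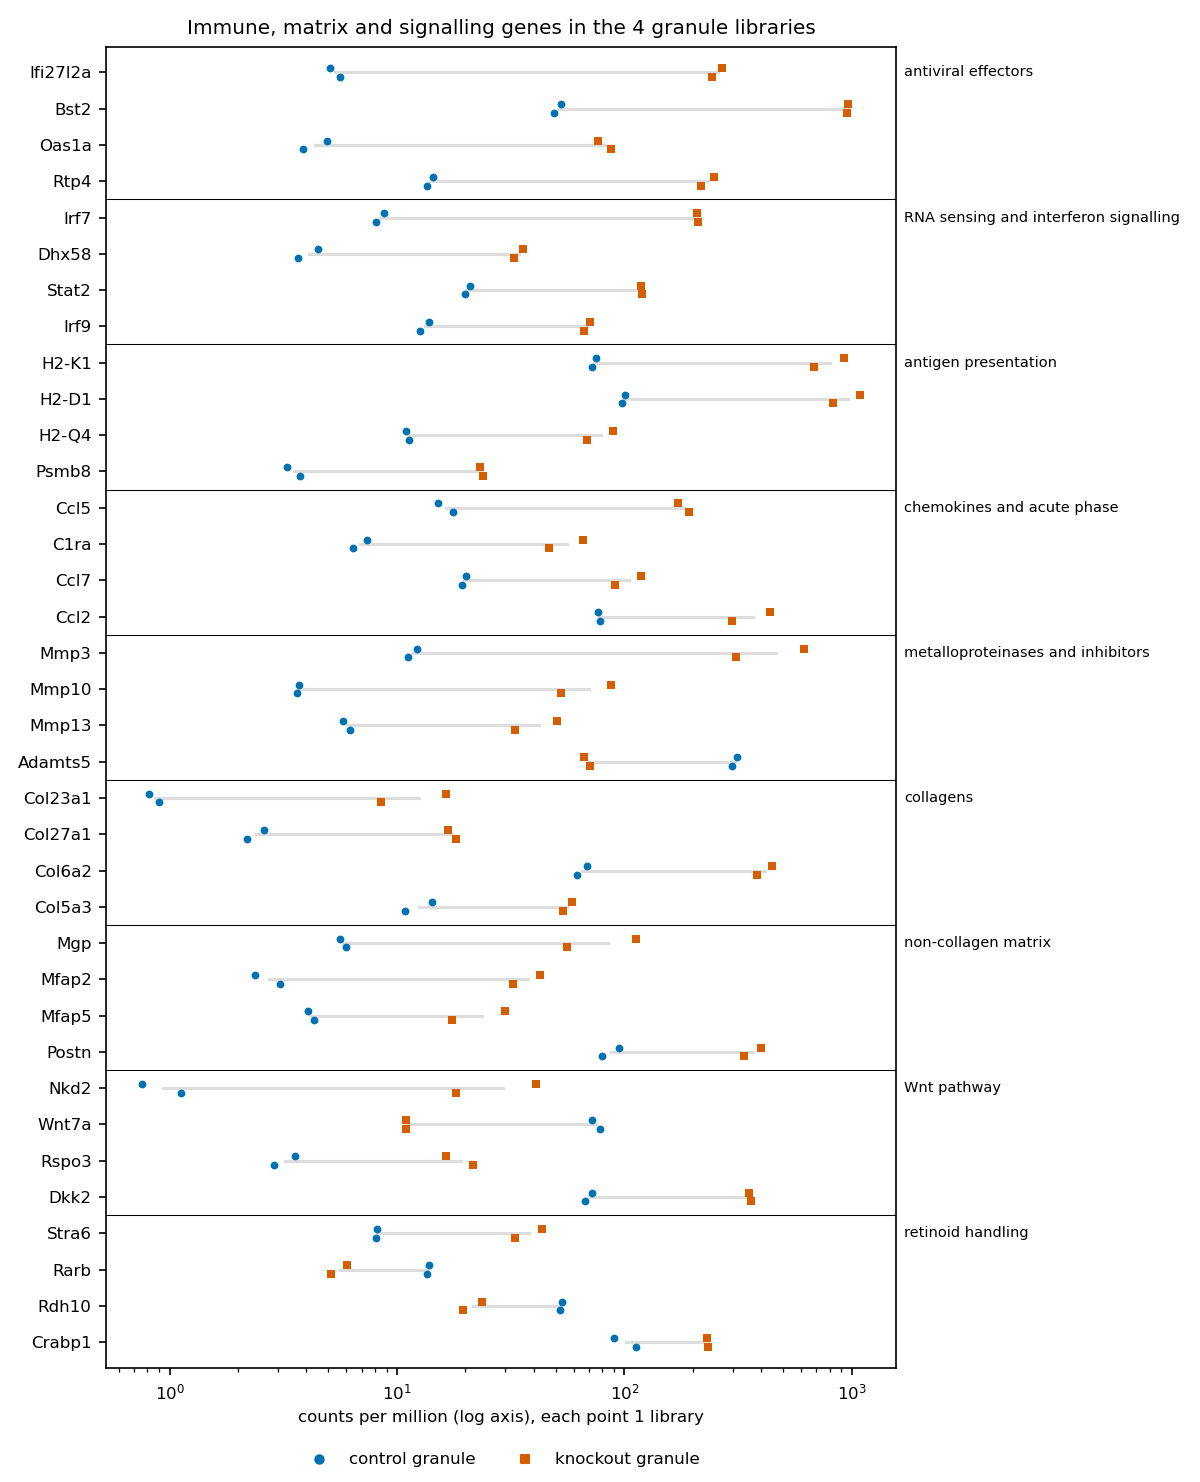
CPM on a log axis for the listed genes in the 2 control granule libraries (circles) and the 2 knockout granule libraries (squares), with a grey line between group means. The genes drawn were chosen as the called members with the largest changes, such as Ifi27l2a at 5.1 and 5.61 against 270 and 244, so the gap between their groups is no result.

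Metalloproteinases are the secreted and membrane enzymes that cut collagen and other matrix proteins. Of 24 tested genes of these enzymes and their inhibitors together, 15 rose, 10 at least 2-fold, and 3 fell, with a median of 0.92. Mmp3, stromelysin 1, had the largest rise of the list, from 12.2 and 11.2 to 617 and 310 (39.6-fold, log2 5.31, SE 0.5), with knockout replicate 1 above replicate 2. Mmp10, stromelysin 2, went from 3.7 and 3.62 to 87.7 and 52.8, and Mmp13, a collagenase, from 5.81 and 6.22 to 50.8 and 33.1. These 3 genes and Mmp12 lie next to each other on chromosome 9, between 7272514 and 7510240 (GRCm38), and all 4 were at least 2-fold higher. The membrane-bound Mmp14 rose from 275 and 239 to 1190 and 1080, and its substrate, the gelatinase Mmp2, from 72.7 and 71.5 to 328 and 249. Of the inhibitors, Timp1 read 86.3 and 102 against 92.6 and 86.6 and was not called. Timp3 fell from 141 and 122 to 93.5 and 61.2 (21.28% of its exon length is shared with Syn3). Adamts5, an aggrecanase, fell from 314 and 299 to 66.5 and 70.6, a change of -2.16 in log2 terms (SE 0.11, adjusted p = 3.16e-09, edgeR).

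Collagens rose broadly. Of 38 tested, 31 rose, 23 at least 2-fold, 3 fell, and the median was 1.34. The fibrillar chains of the interstitium were higher, Col1a1 from 1530 and 1230 to 3910 and 3390, Col3a1 from 146 and 117 to 409 and 448, and Col1a2 from 813 and 703 to 1470 and 1430. Chains of collagen VI, which forms beaded filaments around cells, rose together. Col6a2 went from 68.5 and 61.9 to 444 and 384 (6.35-fold), Col6a1 from 229 and 199 to 867 and 722, and Col6a3 from 19.1 and 14.4 to 82.6 and 65.2. Smaller levels with a large rise were seen for Col23a1, a transmembrane collagen, from 0.815 and 0.903 to 16.5 and 8.48, and Col27a1, a cartilage fibrillar collagen, from 2.6 and 2.2 to 16.7 and 18.2. Col5a3 went from 14.2 and 10.8 to 58.7 and 53.6, but its partner chain Col5a2 fell from 427 and 377 to 194 and 189. Col12a1, which links fibrils, fell most of the collagens, from 106 and 89.4 to 23.1 and 21.1 (log2 -2.14, SE 0.11). The chains of the basement membrane, Col4a1 (0.32) and Col4a2 (0.3, not called), differed little.

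Other matrix proteins rose in 25 of 44 cases, 16 at least 2-fold, and fell in 9, with a median of 0.61. Mgp, an inhibitor of calcification, read 5.64 and 5.95 against 113 and 55.8 (log2 3.87, SE 0.52, adjusted p = 0.019, edgeR), and this call was lost without control replicate 1 (adjusted p = 0.0714) or control replicate 2 (0.152). The microfibril proteins Mfap2, from 2.38 and 3.07 to 42.6 and 32.5, and Mfap5, from 4.07 and 4.32 to 30 and 17.4, rose, and the fibrillin Fbn1 rose by 1.48. Postn, periostin, went from 94.8 and 79.7 to 399 and 337. Fibronectin (Fn1) did not move, at 1620 and 1330 against 1520 and 1300. The cross-linking enzyme Lox fell from 313 and 293 to 152 and 127, and Thbs1, thrombospondin 1, fell by 0.83 on the log2 scale.

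Contractile genes of the smooth muscle and myofibroblast type moved the other way. Of 22 tested, 15 fell, 8 at least 2-fold, and only Mylk rose, with a median of -0.67 (-0.42 among genes averaging 5 CPM or more). Acta2, smooth muscle actin, went from 439 and 507 to 96 and 66.1 (5.84-fold lower), Cnn1, calponin, from 12.1 and 14.9 to 3.21 and 1.9, and Tagln from 108 and 131 to 32.6 and 20.2, the last sharing 67.86% of its exon length with Gm48529. Vcl, vinculin, which anchors actin at adhesions, fell from 162 and 132 to 22.1 and 21.5 (log2 -2.75, SE 0.12, adjusted p = 6.91e-10, edgeR), with 25.52% of its exon length shared with Ap3m1. Srf fell less, from 224 and 183 to 144 and 129. The CArG box was found for 4 of the 18 genes of this list with a window (22.2%: Cnn2, Myl9, Srf and Vcl). It was found for 1.62% of tested protein-coding genes with a window. Myl9 was not called, at 52.1 and 62.5 against 47.5 and 28.4. Cytoplasmic actins and the vimentin filament fell with them: Actg1 from 1900 and 1990 to 573 and 475, Actb from 9830 and 10800 to 5360 and 5270, and Vim from 3160 and 3400 to 1250 and 1360. Of the 12 genes of actin, tubulin and vimentin, 9 fell and 2 rose, the neuronal tubulin Tubb3 (0.98) and Tubb2b (0.26). Their median was -0.56, with 25% at least 2-fold lower and 0% at least 2-fold higher.

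Ligands and targets of transforming growth factor beta had a median of 0.03 over 18 genes, beside 0.07 for all genes, with 6 higher and 4 lower, and its sign turned under some settings (-0.12 to 0.21). Bmp2, a bone morphogenetic protein, rose from 1.68 and 1.68 to 45.1 and 27.2 (21.5-fold), Tgfbi, a secreted adhesion protein, from 7.03 and 7.58 to 63.2 and 58.9, and the ligand Tgfb1 from 25 and 27.5 to 97.4 and 76.6. The matricellular genes Ccn1 (0.23) and Ccn2 (-0.19) were not called. Of the 18 genes, 16.7% were at least 2-fold higher and 5.56% lower, beside 15.9% and 8.78% of all genes.

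In the Wnt pathway, 20 of 44 tested genes rose, 12 at least 2-fold, and 6 fell, with a median of 0.6. Nkd2, which binds Dishevelled, read 0.758 and 1.12 against 40.7 and 18.1 (log2 4.96, SE 0.71, adjusted p = 0.0237, edgeR), a call lost without either control library (adjusted p 0.12 and 0.153). Its relative Nkd1 went from 0.23 and 0.313 to 8.63 and 3.8, and Dkk2, a co-receptor antagonist, from 72.2 and 67.2 to 355 and 362. The transcription factor Lef1 rose from 5.6 and 3.56 to 15.7 and 15.5 and the feedback scaffold Axin2 from 14.3 and 13.1 to 30.2 and 21.7. Among the ligands, Wnt7a fell from 72 and 78.5 to 11 and 11 and Wnt10b from 23 and 21.6 to 6.01 and 5.22, whereas Rspo3, a secreted enhancer of the pathway, rose from 3.55 and 2.89 to 16.5 and 21.6. Lgr6, a receptor for R-spondins, fell from 9.19 and 8.48 to 1.25 and 1.19 (log2 -2.85).

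Guidance molecules, which steer cells and axons, went both ways. Of 64 tested, 33 rose, 16 at least 2-fold, and 12 fell, 8 at least 2-fold, with a median of 0.66 (0.41 with the GC trend removed). The class 3 semaphorins Sema3a, from 31 and 27.7 to 3.33 and 2.84 (log2 -3.25, SE 0.13), and Sema3c, from 83.2 and 78.1 to 28.2 and 26.5, fell, and Sema6a, a transmembrane semaphorin, rose from 0.278 and 0.321 to 8.52 and 6.81. Plxdc1, a plexin-domain transmembrane protein, matched Ifi27l2a in the size of its rise, from 0.537 and 0.408 to 24.2 and 20.8 (log2 5.58, SE 0.18). The receptor Robo2 went from 5.72 and 4.58 to 39.3 and 29.7. Of 21 integrins, the receptors for matrix, 9 rose and 4 fell, Itga3, Itgav, Itga6 and the common beta chain Itgb1. The median of the integrins was 0.45, with 33.3% at least 2-fold higher and 4.76% lower. Itga3 fell from 341 and 315 to 112 and 107, and Itgb3 rose from 2.93 and 1.93 to 10.7 and 11.5. Of growth factors and receptors, 13 of 31 rose, 9 at least 2-fold (29% beside 15.9% of all genes), and 8 fell (25.8% beside 28.2%), with a median of 0.28. Igfbp4, a binding protein of insulin-like growth factors, rose from 18.2 and 16.4 to 203 and 106 (adjusted p = 0.0164, edgeR, and 0.116 without control replicate 2), Igf1 rose by 1.51 on the log2 scale, and Kitl, the Kit ligand, fell from 21.9 and 19.1 to 7.3 and 6.6.

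Retinoid handling genes had a median of 0.9 over 16 genes, which fell to -0.27 when the test was limited to genes averaging 5 CPM or more. Stra6, the receptor that takes up retinol, rose from 8.21 and 8.1 to 43.5 and 33, and Crabp1, which binds retinoic acid in the cell, from 90.5 and 113 to 230 and 234. The enzymes that make retinoic acid were lower, Rdh10 from 53.4 and 51.9 to 23.6 and 19.6 and Aldh1a1 from 6.39 and 6.75 to 1.25 and 1.22. Aldh1a7, a paralogue of Aldh1a1, had the largest fall of the genes described here, from 10.7 and 10.9 to 0.26 and 0.357 (35.1-fold, log2 -5.13, SE 0.22), and similar sequences of the pair can exchange reads. The retinoic acid receptor Rarb fell by 1.29 on the log2 scale, with 38.37% of its exon length shared with Top2b. Of the 16 genes, 43.8% were at least 2-fold higher and 18.8% lower.

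Transcription factors of embryonic mesenchyme went both ways, 13 of 32 higher and 8 lower, and their shares at least 2-fold higher (15.6%) and lower (12.5%) were near the 15.9% and 8.78% of all genes. Osr2, a zinc finger factor of limb and palate, rose from 11.4 and 12.3 to 108 and 79.3 (log2 2.97, SE 0.15), whereas Sp8, a factor of the limb bud, fell from 14.3 and 12.9 to 1.8 and 2.53, Msx2 from 9.67 and 9.29 to 2.39 and 2.33 and Foxc2 from 38.8 and 35.3 to 11.3 and 8.52. Hox genes had a median of -0.04 over 30 genes (-0.17 to 0.24 over the settings tried), with 7 higher and 11 lower. Among the Hox genes, 13.3% were at least 2-fold higher and 10% lower. Hoxc12 fell from 49.6 and 41.9 to 14.9 and 11.7, and Hoxc9 rose from 19.6 and 20.8 to 44.3 and 52.

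Other genes at the ends of the ranking belong to none of these groups. Tmem119, a membrane protein of osteoblast lineage cells and microglia, went from 4.91 and 4.62 to 158 and 112 (log2 4.82), Cygb, cytoglobin, from 0.853 and 0.799 to 20.9 and 16, and Nrgn, a calmodulin-binding protein, from 0.585 and 0.504 to 12.8 and 12.9. Islr, a secreted leucine-rich repeat protein of mesenchymal cells, rose from 1.12 and 0.582 to 28.4 and 17.3, Pdgfrl from 1.34 and 1.5 to 43.2 and 28.9, and Plekha4 from 1.32 and 0.756 to 21.2 and 19.7. These genes were chosen among those whose groups do not overlap. On the other side, the keratins Krt80, from 35.2 and 34.7 to 3.28 and 3.13, and Krt19, from 287 and 329 to 45.9 and 46.1, fell, as did Ass1, an enzyme of arginine synthesis, from 543 and 565 to 81.7 and 81.5. The oxidase Cyp1b1 fell from 58.9 and 55.3 to 10.6 and 8.3, the scaffold Shank2 from 30.3 and 24.8 to 4.2 and 4.94, and Tmem171 from 36.8 and 35.5 to 5.76 and 5.04. Replicates lay closer together for these genes that fell than the knockout replicates did for Islr, Pdgfrl and Tmem119.

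Genes of DNA replication and mitosis had the lowest median of all lists, -0.9. Of 49 tested, 39 fell, 20 at least 2-fold, and 2 rose, among them the DNA ligase gene Lig1 (0.32). The cytokinesis genes Kif20a, from 131 and 118 to 28.3 and 21.3, and Anln, from 373 and 339 to 83.2 and 82.2, fell, as did Ect2, by 2.17 on the log2 scale. Kif20a shares 29.3% of its exon length with Cdc23. Rrm2, the regulated subunit of ribonucleotide reductase, fell from 455 and 434 to 102 and 97.6 (log2 -2.16, SE 0.11, adjusted p = 4.5e-09, edgeR). The mitotic cyclin Ccnb1 went from 132 and 128 to 36.2 and 34, and the mitotic kinase Plk1 from 146 and 147 to 43.3 and 39.4. Not every proliferation gene followed, since Cenpe (0.02), Cenpf (0.01) and Mki67 (-0.3) were not called.

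In the G1 phase, 11 of 16 genes fell and 4 rose, with a median of -0.66. At least 2-fold, 25% were lower and 6.25% higher. Ccnd1, cyclin D1, went from 237 and 237 to 43.4 and 51.9 (4.97-fold lower), with 23.36% of its exon length shared with another gene. The retinoblastoma family fell, Rb1 from 12.5 and 10.9 to 5.62 and 5.55 and Rbl2 from 35.2 and 31.5 to 14.7 and 12.3. Of the inhibitors of cyclin-dependent kinases, Cdkn2c fell from 81.3 and 79 to 36.6 and 27.3, Cdkn1a, the p53 target p21, from 283 and 295 to 182 and 202, and Cdkn2b rose from 119 and 121 to 256 and 239. Myc rose from 272 and 247 to 438 and 351.

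Targets of p53, the tumour suppressor that halts damaged cells, fell in 16 of 24 cases, 8 at least 2-fold, and 1 rose, the apoptosis gene Bbc3 (0.59), with a median of -0.64. Ccng1, cyclin G1, fell from 326 and 319 to 55.3 and 68.9 (log2 -2.38, SE 0.13), Zmat3, an RNA-binding protein, from 231 and 194 to 55.5 and 64.8, Eda2r, a death receptor, from 50.1 and 45.1 to 12.8 and 15.1, and Aen, a nuclease, from 97 and 87.1 to 28.8 and 32.2. Mdm2, the ligase that degrades p53, went from 469 and 411 to 220 and 242. The cell death genes Bax (-0.11) and Gdf15 (0.01) were not called, so the fall was uneven across the list.

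Among genes of the arsenite response itself, cytosolic and mitochondrial chaperones fell in 13 of 18 cases, 7 at least 2-fold, and none rose by the test, with a median of -0.52. Hspa1b, the inducible Hsp70, read 105 and 117 against 56.2 and 44.8 (log2 -1.14, SE 0.12), although Hspa1a and Hspa1b are near-identical and share reads. Hspd1, the mitochondrial chaperonin, went from 650 and 641 to 282 and 283, Dnajb4 from 52 and 45.2 to 21.7 and 20.4, and Chordc1, a co-chaperone of Hsp90, from 70.1 and 65.7 to 30.1 and 32.5. The most abundant of them, Hsp90aa1, overlapped between groups at 3110 and 2960 against 2960 and 4010.

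Targets of NRF2, the factor that answers oxidative stress, and of metal exposure went both ways. Of 21 tested, 12 fell and 5 rose, with a median of -0.42 (-0.25 among genes averaging 5 CPM or more). At least 2-fold, 23.8% were lower and 14.3% higher. Among the genes that fell were enzymes that make glutathione, recycle thiols or degrade heme: Gclm from 116 and 109 to 35.1 and 38, Txnrd1 from 669 and 623 to 278 and 270, and Hmox1, heme oxygenase 1, from 316 and 305 to 174 and 137. Among those that rose were the metal-binding metallothioneins, Mt1 from 88.6 and 104 to 283 and 240 and Mt2 from 24.9 and 27.8 to 130 and 99, of which Mt2 shares 73.47% of its exon length with Gm45774. Gsta4, a glutathione transferase, rose from 3.48 and 4.87 to 19.4 and 23.1.

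The integrated stress response, which arsenite starts through phosphorylation of eIF2, had a median of 0 over 25 genes (-0.2 to 0.17 over the settings tried), with 6 higher and 8 lower. Its factor Ddit3, CHOP, rose from 91.3 and 88.2 to 246 and 211, and Trib3, which restrains it, from 22.1 and 25.2 to 67 and 60.3, whereas the serine synthesis enzyme Psat1 fell from 436 and 456 to 206 and 187. Atf4 was not called, at 522 and 542 against 631 and 587. Of the 25 genes, 16% were at least 2-fold higher and 8% lower, near the 15.9% and 8.78% of all genes. Immediate-early genes had a median of 0.09 over 25 genes (-0.08 to 0.35 over the settings tried), 12 higher and 7 lower. Klf4 rose from 76.7 and 74.5 to 320 and 340, Nr4a2 from 22.9 and 21 to 47.8 and 60.4, and Egr2 from 37 and 33.4 to 161 and 92 (adjusted p = 0.0161, edgeR, and 0.108 without control replicate 2). Klf10 fell from 118 and 117 to 39.1 and 31.6. Among the immediate-early genes, too, 16% were at least 2-fold higher and 8% lower. Feedback inhibitors of MAP kinases had a median of -0.29 (-0.14 under upper-quartile scaling), with 8 of 16 lower and 3 higher. Of these 16 inhibitors, 6.25% were at least 2-fold lower and 0% at least 2-fold higher. The phosphatases Dusp14, from 87.6 and 93 to 45.1 and 43.1, and Dusp5, from 285 and 268 to 160 and 154, fell. Dusp8 rose from 37.6 and 32.6 to 56.3 and 65.2.

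mRNAs that encode proteins of stress granules and P-bodies were themselves mostly lower in the fraction, but few by at least 2-fold. Of 28 tested, 21 fell (75%, beside 28.2% of all genes), with a median of -0.53. Only 1 rose, the decapping enzyme gene Dcp2 (0.31). At least 2-fold, 0% were higher and only 2 were lower (7.14%, beside 8.78% of all genes). Those 2 were Zfp36l2, which binds AU-rich elements, from 554 and 478 to 224 and 202, and Caprin1, a partner of G3bp1, from 445 and 428 to 192 and 192. Atxn2l went from 303 and 281 to 162 and 149. The granule nucleator G3bp1 fell from 524 and 530 to 368 and 402 (log2 -0.45) and Tia1 by 0.3, changes too small for the 2-fold limit. Pabpc1, the poly(A)-binding protein, was not called, at 3390 and 3380 against 2510 and 3160.

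Of 21 writers, readers and erasers of m6A, Mettl3 included, 11 fell and 4 rose, with a median of -0.26 that was -0.08 among genes averaging 5 CPM or more. The partner of Mettl3, Mettl14, fell from 38 and 34.8 to 23.9 and 19.5, and the adaptor Wtap, at 69.8 and 67.8 against 77.8 and 69.7, was not called. The cytoplasmic readers differed among themselves: Ythdf1 read 122 and 122 against 121 and 119, Ythdf2 rose from 115 and 109 to 142 and 195, and Ythdf3 fell from 103 and 92.4 to 56.4 and 52.6. The nuclear reader Ythdc1 rose from 168 and 152 to 301 and 364, and Ythdc2 fell from 14 and 12.4 to 4.52 and 5.23. Fmr1, an RNA-binding protein that is also a reader, fell from 237 and 206 to 88.4 and 107. Of the 21 genes, 14.3% were at least 2-fold lower and 4.76% higher.

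Of 84 cytosolic ribosomal protein genes, 29 rose (34.5%, beside 29.1% of all genes) and 9 fell, with a median of 0.2 that became -0.12 when the trend with transcript length was removed. At least 2-fold, 1.19% of them were higher and 0% lower. Similar pseudogene copies can take reads of these genes. Rpl41 rose from 1040 and 1520 to 2090 and 2550, and Rpl7a fell from 779 and 917 to 479 and 491. Of 65 translation factors, 32 fell and 9 rose, with a median of -0.3 (-0.14 under upper-quartile scaling). At least 2-fold, 12.3% were lower and 3.08% higher. The initiation factor Eif4g2 went from 928 and 914 to 336 and 314, the elongation factor Eef1a1 from 10200 and 10500 to 5480 and 5760, and Eef2 from 6130 and 6370 to 3700 and 3790. The double-stranded RNA kinase Eif2ak2, an interferon-induced member of this list, rose from 60.6 and 61 to 216 and 258. Glycolysis and hypoxia genes fell in 15 of 24 cases, with a median of -0.46. Of them, 12.5% were at least 2-fold lower and 4.17% higher. Pgam1 went from 279 and 292 to 102 and 88.4. Gapdh, often taken as a constant reference, went from 1360 and 1550 to 851 and 959. Sterol synthesis had a median of -0.26 (-0.1 among genes averaging 5 CPM or more) with 11 of 24 lower and 5 higher. Only 4.17% were at least 2-fold lower, beside 8.78% of all genes, and 0% at least 2-fold higher. Idi1 fell from 13.9 and 13.1 to 3.52 and 2.7.

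Mitochondrially encoded mRNAs were at least 2-fold higher in the knockout fraction in all 7 tested of 13 listed, with a median of 2.69. The other 6 averaged at most 3 counts, such as mt-Co3 with 0 and 0 counts in control and 5 and 2 in knockout. Why they had so few was not tested. mt-Co1, a subunit of complex IV, went from 1380 and 1450 to 10200 and 12800 (log2 3.02, SE 0.18, adjusted p = 1.49e-08, edgeR), and mt-Cytb, of complex III, from 819 and 951 to 6390 and 7870. The ribosomal RNAs of the organelle rose too, from 0.191% and 0.237% of all counts to 3.36% and 5.46%. Nuclear genes of oxidative phosphorylation did not follow as a group, with 33 of 84 higher and 22 lower. Their median was 0.08 (-0.23 to 0.23 over the settings tried), and 2.38% were at least 2-fold higher and 4.76% lower. Sdha, the flavoprotein of complex II, fell from 322 and 290 to 92.3 and 85. The part of the mitochondrial share in the other results was not tested beyond the scaling: with these genes left out of the scaling factors, 10303 genes were called. Of the nuclear noncoding RNAs, Malat1, which is retained in nuclear speckles, rose from 691 and 671 to 2370 and 3220, Neat1 rose from 93.1 and 89 to 121 and 151, and Tug1 fell from 66.9 and 60.2 to 34.7 and 30.7. In total RNA, knockout replicate 1 had 7.6% mitochondrial counts and replicate 2 0.807%, beside 0.73% and 0.881% in control.

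**Figure D3:**
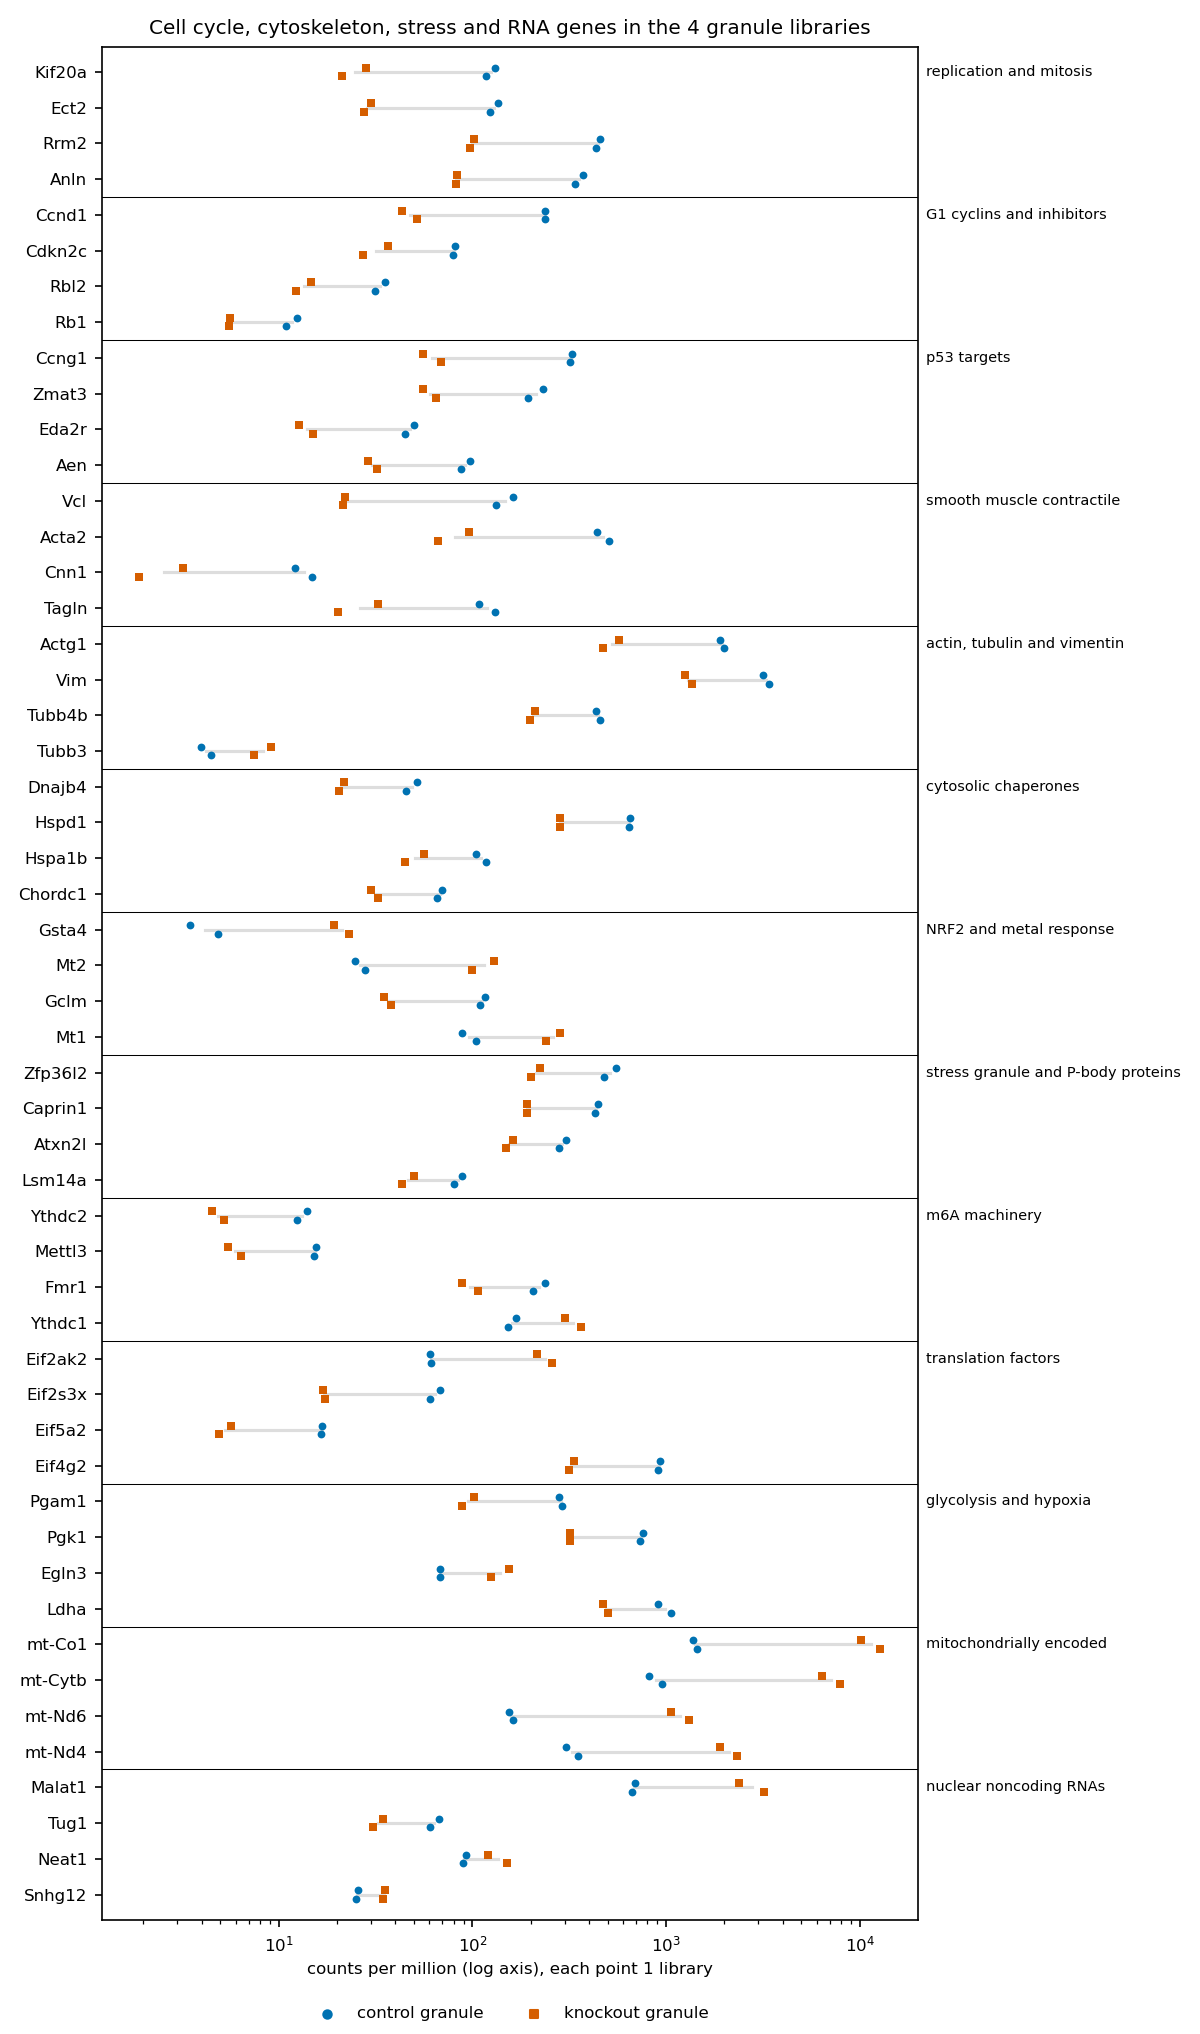
CPM on a log axis for genes of the cell cycle, cytoskeleton, stress responses, translation and organelles, with control granule libraries as circles and knockout granule libraries as squares. The genes drawn were chosen as the called members with the largest changes, so the gap between their groups is no result. Among those drawn, squares lie left of circles for the cell cycle and p53 genes, such as Ccnd1 at 237 and 237 against 43.4 and 51.9. For the mitochondrial genes drawn they lie right of circles, such as mt-Co1 at 1380 and 1450 against 10200 and 12800.

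Transcript class and composition went with the changes as well. Of 14929 tested protein-coding genes 13.8% were at least 2-fold higher, against 34.3% of 591 antisense genes, 33.9% of 416 long intergenic noncoding genes and 27.9% of 104 snoRNA genes. Among protein-coding genes, the shortest of 4 equal bins of transcript length (57 to 1934 nt) had a median log2 fold change of 0.25, with 18.2% at least 2-fold higher and 4.02% lower. In the longest bin (4581 to 123200 nt) the median was -0.11, with 11.6% higher and 11.7% lower. By GC content the median ran from -0.2 in the lowest of 4 bins to 0.29 in the highest. Across 14921 genes, which are not independent replicates, Spearman's rho of the log2 fold change with length lay between -0.215 and -0.101 over the 4 pairings of a knockout with a control library, and that with GC content between 0.186 and 0.218. Genes at least 2-fold higher had a median transcript length of 2673 nt and a median level of 1.54, those at least 2-fold lower 3676 nt and 33.6, and all protein-coding genes 3053 nt and 18.9. With the length trend removed 10238 genes were called, and with the GC trend removed 10090.

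**Figure D4:**
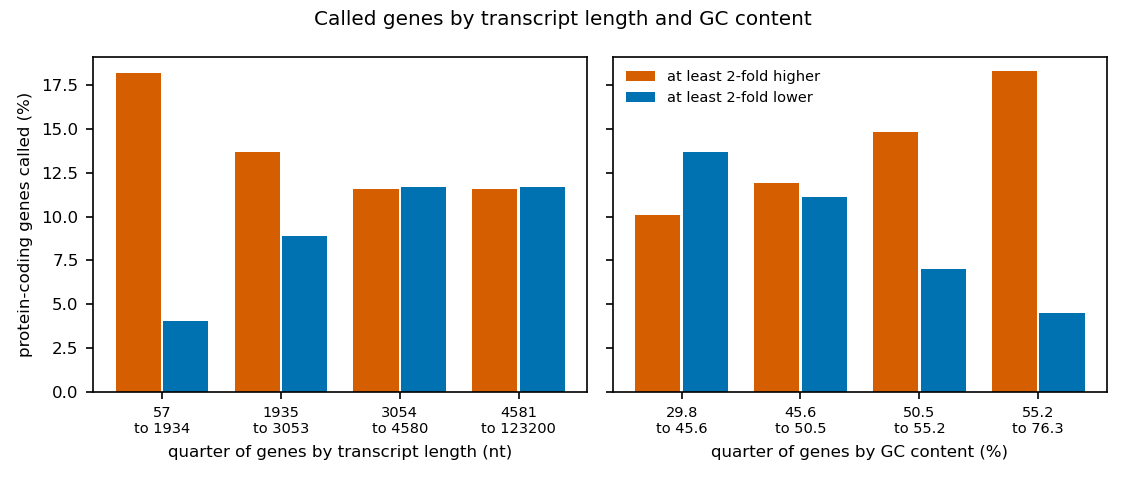
Share of protein-coding genes called and at least 2-fold higher or lower in the knockout granule fraction, in 4 bins of transcript length (left, in nt) and of GC content (right, in %), each bin holding about the same number of genes. The share of higher genes falls from 18.2% to 11.6% with length and the share of lower genes falls from 13.7% to 4.48% with GC content.

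To see where the granule fraction differed from total RNA, the knockout effect in the 2 materials was compared by an interaction term over all 8 libraries, which called 98 of 18952 genes (0.517%) by edgeR. In total RNA alone 0.412% of genes were called. The 2 knockout total libraries stood apart from each other, as their mitochondrial shares show, and the number called for the interaction was 3712 without the first and 9349 without the second. Arsenite treatment and fraction differ together between these materials, so their parts cannot be told apart. Collagen VI chains were among the genes called. The granule effect minus the total RNA effect, on the log2 scale, was 3.36 for Col6a2 (SE 0.38, adjusted p = 0.0374, edgeR). It was 2.7 for Col6a1 (SE 0.37, adjusted p = 0.039, edgeR) and 2.65 for Col6a3 (SE 0.4, adjusted p = 0.0437, edgeR). For Col6a2 the effect was 2.67 in the granule fraction and -0.7 in total RNA, where it was not called. By edgeR, Ifi27l2a differed by 5.1 (adjusted p = 0.0394), Rrm2 by -2.48 (adjusted p = 0.039), Ccnd1 by -2.44 (adjusted p = 0.0437) and Zmat3 by -2.22 (adjusted p = 0.047). In total RNA none of them was called, at 0.48, 0.31, 0.12 and 0.39 in the same order. For most antiviral effectors no difference was called: 2 of 46 passed, Ifi27l2a and Ifi27, and by edgeR Ifit1 had a difference of -1.28 (adjusted p = 0.458) and Isg15 of 1.94 (adjusted p = 0.17). Acta2 (1.09, adjusted p = 0.177) and Mmp3 (2.14, adjusted p = 0.107) were not called by edgeR either, which does not show that the effects were alike.

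Levels of whole lists across the 8 libraries show the same contrast. The mean log2 CPM of the antiviral effectors, centred on the mean of the 8 libraries, was -2.37 and -2.43 in control granule, 0.36 and 0.35 in knockout granule, -0.22 and 0.28 in control total and 2.21 and 1.83 in knockout total. The knockout was thus above control in both materials. Collagens stood at -0.5 and -0.75 against 0.69 and 0.61 in the granule fraction, and at 0.04 and 0.08 against -0.29 and 0.11 in total RNA. Replication and mitosis genes stood at 0.72 and 0.72 against -0.18 and -0.23 in the granule fraction, and at -0.27 and -0.31 against -0.08 and -0.37 in total RNA. For these 2 lists the genotypes were separated in the granule fraction and overlapped in total RNA, though a test of the list as a whole was not made. Contractile genes were lower in the knockout in both materials, at 0.67 and 0.67 against -0.08 and -0.23 in granules and 0.59 and 0.13 against -0.91 and -0.83 in total RNA.

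**Figure D5:**
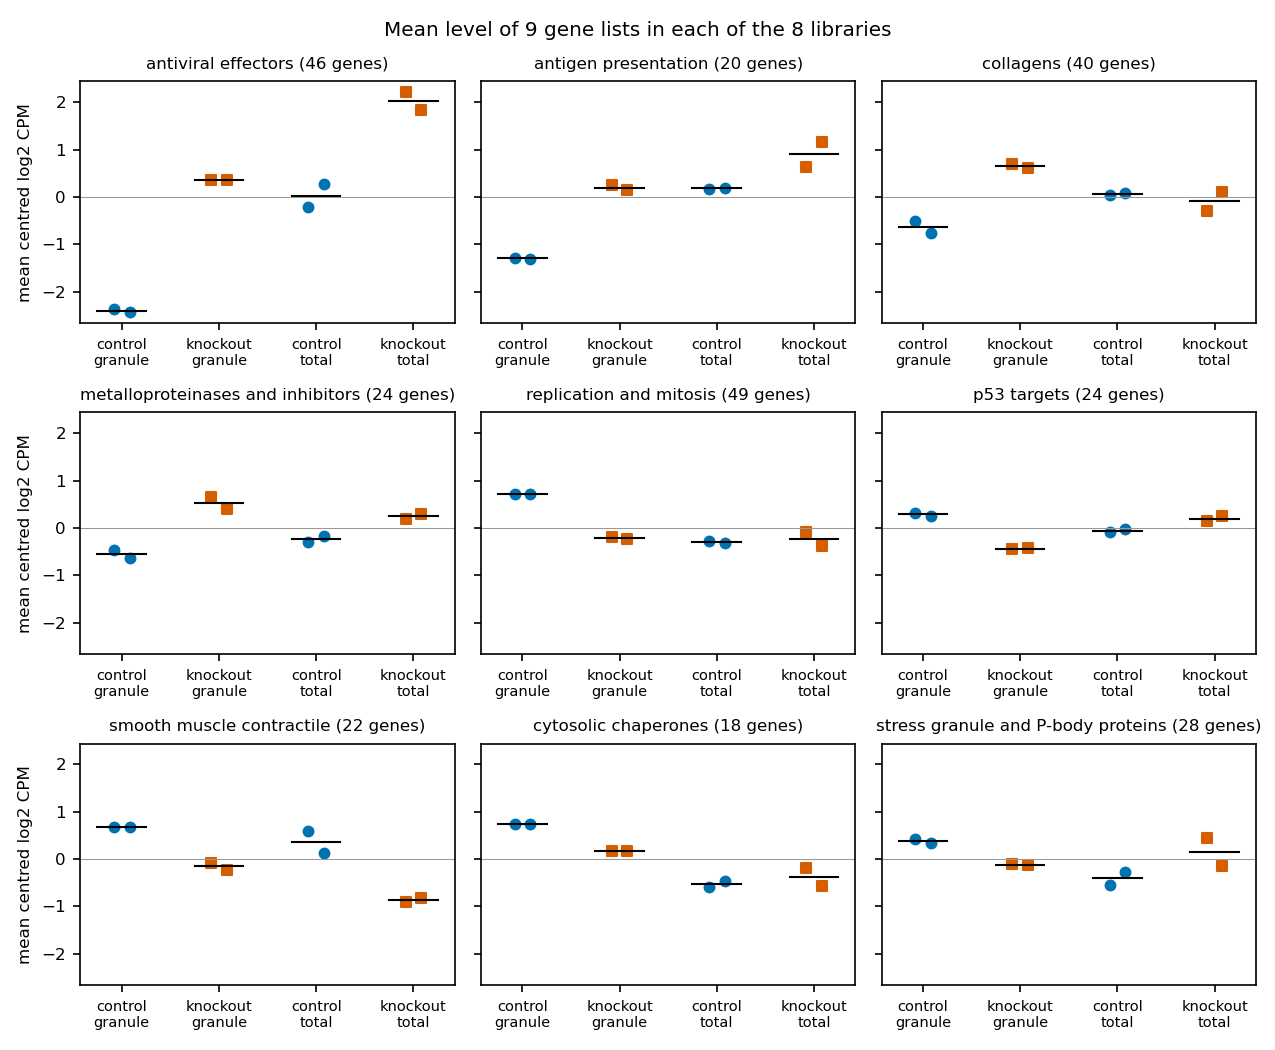
Mean log2 CPM of 9 gene lists in each of the 8 libraries, centred on the mean of the 8, with 1 point per library, squares for knockout and a bar at the group mean; list sizes are those of the genes tested over all 8 libraries. Antiviral effectors lie higher in knockout in both materials (0.36 and 0.35 against -2.37 and -2.43 in granules), while replication and mitosis genes are separated by genotype only in the granule panels drawn here.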

How the data were processed

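RNA-seq was done on 8 libraries, 2 per group. The deposited table holds whole-number counts per Ensembl gene for each library; per the submitters' processing notes, STAR and DESeq2 were used with GRCm38 and mm10, and the counter, strand setting and annotation release are not given in the sources used here. Identifiers were named from GENCODE M21 (37693 matched; unmatched ones took 0.199% to 0.211% of granule counts). Totals of the granule libraries ran from 97492170 to 118426371.

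The 4 granule libraries were filtered with filterByExpr (minimum count 10), scaled by TMM and tested with edgeR 4.0.16 (R 4.3.3) quasi-likelihood F tests, with Benjamini-Hochberg adjustment over all 18066 genes and a threshold of 0.05. Each SE is the absolute log2 fold change divided by the square root of its F statistic. Log2 CPM used a prior count of 2. The difference between granule and total RNA was an interaction contrast over all 8 libraries. Exact permutation of 2 against 2 cannot go below 0.333, so none was used. Same-numbered libraries did not pair (correlation of deviations 0.0977). Alternatives were other scalings, filters, DESeq2 1.42.0, limma-voom (limma 3.58.1), a test against a log2 change of 1, a replicate block, removal of GC and length trends (lowess span 0.3) and leaving out each library. Data were simulated for this comparison (18066 genes), with changes put into 200 genes averaging 5 CPM or more. Of these changes, 73.1% of 1.5-fold were recovered, 100% of 2-fold and 98.5% of 4-fold, with 18 false calls among the unchanged genes.

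Genes named by rule were Mettl3, the 12 highest and 12 lowest called protein-coding genes averaging 5 CPM or more, without overlap between groups, and the 4 called members with the largest change of each list at that level. Other list members were named for their role, called or not, some after their values were seen. The comparison, its members and the lists were chosen with earlier results of these data known. Promoter windows are from RefSeq (GRCm38.p6). A few genes are not reported here.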

Additional observations from a re-analysis of the deposited data

Results flagged for a closer look

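For 21 of the genes named in the granule comparison, the knockout effect differed between the granule fraction and total RNA by the test of that difference itself (edgeR interaction, adjusted over 18952 genes). Over all genes 0.517% were called. Genes were named mostly for large changes in the granule fraction, and that change is part of the difference, so the count of 21 is no result. Values are the granule effect minus the total RNA effect on the log2 scale.

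Among genes with a larger value in the granule fraction, Stra6 had 6.07, Nrgn 5.41, Ifi27l2a 5.1, Cygb 4.61, Plxdc1 4.46, Islr 4.22 and Nkd2 3.98. Matrix genes were Col27a1 with 3.4, Mfap5 with 3.38, Col6a2 with 3.36, Tgfbi with 3.34 and Mfap2 with 3.29. Osr2 had 3.53 and Crabp1 3.17. Each value joins the effects in both materials, and a fall in total RNA adds to it. The effect on Stra6 was 2.23 in the granule fraction and -3.85 in total RNA (adjusted p = 0.0236, edgeR). For Crabp1 it was 1.19 and -2 (adjusted p = 0.0415, edgeR). Others had a positive effect in total RNA that was not called, such as Plxdc1 (1.11) and Ifi27l2a (0.48). Among genes with a lower value, the factors Sp8 and Foxc2 had -3.97 and -2.44, Tmem171 and Zfp36l2 each had -2.65, and the cell cycle and p53 genes Rrm2, Ccnd1 and Zmat3 had -2.48, -2.44 and -2.22. Each of the 21 kept its direction without either knockout total library, as for Ifi27l2a at 4.49 without replicate 1 and 5.96 without replicate 2. Such a fit leaves 1 library in that group and calls many more genes, so whether a call is kept says little. With the replicate number as a block, 0 genes were called.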

How the results depend on the processing

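Over the scalings, tests, trend removals and filters tried, between 7057 and 10612 genes were called, apart from the settings named here. A test against a log2 fold change of 1 called 2036 genes, 1394 higher and 642 lower. Fitting all 8 libraries called 1791, 1098 higher and 693 lower, of which 1095 and 674 were at least 2-fold. Among genes averaging 5 CPM or more, 1019 were at least 2-fold higher and 676 lower, out of fewer genes tested. Upper-quartile scaling moved the median of all genes from 0.07 to 0.22 and the share of higher calls from 50.8% to 60.5%. Leaving out each granule library in turn gave 8468 to 9778 calls. With the replicate number as a block, 10437 genes were called (10612 with the GC trend removed as well), and the interaction called 0 genes (3923 at an unadjusted p under 0.05, edgeR). The interaction called 3712 genes without knockout total replicate 1 and 9349 without replicate 2; the cause was not tested. Of 166 named genes none reversed under any setting. They were chosen as called genes, mostly for large changes, so a reversal was unlikely from the start. Of them, 59 lost their call in the fit of all 8 libraries and 51 in the test against a log2 change of 1.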

Other observations

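Genes that neighbour each other on a chromosome and were each at least 2-fold higher in the knockout granule fraction formed runs of at least 4. They include the chemokine run Ccl2, Ccl7, Ccl11, Ccl8 and Ccl1 on chromosome 11, the guanylate-binding run Gbp7, Gbp3, Gbp2b and Gbp2 on chromosome 3, and Psmb9, Tap1, Psmb8 and Tap2 on chromosome 17. Members of a run of related genes can share reads.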
